A study of Mus musculus with 22 samples.

Results

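The Wnt family described here comprised 55 of the 17931 gene symbols counted in whole mouse testes. Members were taken by symbol: all genes named *Wnt*, *Fzd*, *Sfrp*, *Dkk*, *Rspo*, *Axin* and *Tcf7*, together with *Lgr4*, *Lgr5*, *Lgr6*, *Lrp5*, *Lrp6*, *Lef1*, *Znrf3*, *Porcn* and *Wls*. By role they were 18 Wnt ligands, 2 genes of ligand processing, 12 receptors, 8 genes of the R-spondin arm, 9 secreted inhibitors or their relatives, and 6 intracellular genes. RNA was sequenced from 6 libraries of adult males aged 7 months, 3 WT and 3 *Mlx* knockout (MLX KO), to ask how the testis transcriptome differs when MLX is missing. MLX is a helix-loop-helix transcription factor that pairs with MondoA or ChREBP and binds E-box-like sequences. The WT males were breeders known to be fertile and the MLX KO males were their littermates of the same age, given as 3 pairs. The MLX KO allele was made by gene targeting in 129S4 embryonic stem cells, a Meox2-Cre deleter strain was used to obtain the knockout in the whole body, and that Cre was then bred out, so that neither group carries it and every cell type of the KO animal lacks the deleted part of the gene.

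Wnt proteins are lipid-modified secreted signals. They are acylated by PORCN, carried to the cell surface by WLS and received by Frizzled receptors with the co-receptors LRP5 and LRP6, after which β-catenin is no longer destroyed and acts with TCF/LEF factors on target genes. R-spondins, through LGR receptors, keep the ubiquitin ligases ZNRF3 and RNF43 from removing Frizzled receptors, while secreted SFRP and DKK proteins hold Wnt signalling down and AXIN proteins scaffold the β-catenin destruction complex. In the gonads the pathway is best known for sex determination, in which WNT4 and RSPO1 act on the ovarian side. In the adult testis Wnt signals are known between somatic cells and spermatogonia.

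The libraries held 16674678 to 19742726 counts, and TMM factors, which correct library sizes for composition, were 0.943 to 0.961 in WT and 1.02 to 1.07 in MLX KO libraries. *Mlx* itself had 128, 96 and 98 counts in WT1, WT2 and WT3 and 94, 109 and 102 in KO1, KO2 and KO3, with a log2 fold change (LFC, MLX KO against WT) of -0.18 (SE 0.14, adjusted p = 0.326). Because the count covers the whole gene, including exons outside the deletion, it is no check of the genotype labels, and all directions are those of the libraries labelled KO. The tissue expressed its defining cell type markers, and their balance differed between genotypes. Over all genes tested, 24.8% were higher and 20.6% lower past the threshold, an adjusted p of 0.05. All 12 Sertoli cell markers (median LFC 0.78), 9 of 9 Leydig cell markers (1.07) and all 8 macrophage markers with counts (1.21) were higher past the threshold, as were 5 of 6 markers of interstitial stroma (1.06), whereas 10 of 10 markers of elongating spermatids (-0.53) and 7 of 7 of round spermatids (-0.27) were lower, the latter 5 of 7 with the pairs as a block (*Acr* adjusted p = 0.0607, *Spaca1* 0.0604). Of the macrophage markers, *Cx3cr1* passed narrowly (adjusted p = 0.0494) with overlapping groups, KO3 at 3.97 CPM lying below every WT library. In whole tissue, fewer cells of a type and less RNA per cell cannot be told apart.

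*Wnt4* stood out from the rest of the family. It was nearly undetected in WT testes, with 5, 2 and 3 counts in WT1 to WT3, and had 142, 140 and 128 counts in KO1 to KO3. These are 0.264, 0.127 and 0.169 CPM (counts scaled to a common library size, with the TMM factor) in WT and 7.32, 7.74 and 6.78 CPM in MLX KO libraries. The groups did not come near each other, and the 3 libraries of each genotype lay close together. The means were 0.187 ± 0.0699 CPM (SD, n = 3) in WT and 7.28 ± 0.486 CPM (SD, n = 3) in MLX KO testes. The LFC of *Wnt4* was 5.21 (SE 0.25, quasi-likelihood test of edgeR, Benjamini-Hochberg adjusted p = 3.23e-07), which ranked 2 among the LFCs of all 14640 genes tested, and stayed between 5.02 and 5.54 under 15 other ways of fitting. Because the WT value rests on 10 counts in all, against 410 in MLX KO, the ratio scaled for library size is known only to 38.1 (95% interval 20.5 to 80.1, counting error only). The gene lies on chromosome 4 from 137277635 to 137299501 of mm10, on the plus strand, and none of its 4194 exonic bases overlaps an exon of another annotated gene.

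**Figure D1:**
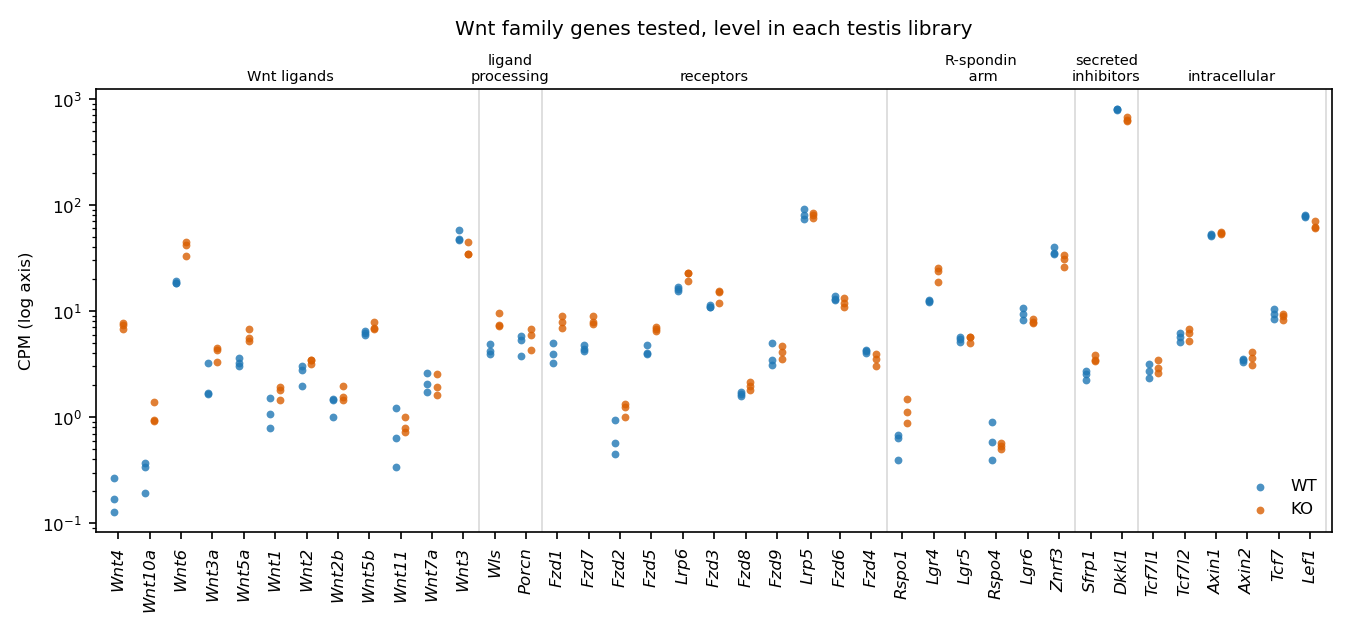
CPM (log axis) of the 39 Wnt family genes with enough counts to be tested, grouped by role and ordered by LFC, with 1 point for each WT and each KO library. *Wnt4* moves from 0.127 to 0.264 CPM in WT up to between 6.78 and 7.74 CPM in KO libraries, and most other genes keep their order of magnitude.

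Of the 55 members, 39 had enough counts for the test and 16 did not. Among the 39, 14 were higher and 4 were lower in MLX KO testes, together 46.2%. Over all genes tested, 45.4% passed the same threshold, an adjusted p of 0.05, with 24.8% higher and 20.6% lower, so the number of family members that changed was near the background. The median LFC of the tested members was 0.20 with or without *Wnt4*, beside 0.03 over all genes. The next largest LFC in the family after that of *Wnt4* was 1.81 for *Wnt10a*. By ranges, 18 of the 39 had all MLX KO libraries above all WT libraries (46.2%, against 30.3% of all genes tested) and 5 had all of them below (12.8%, against 25.9%). Scaling by library size alone moved the median LFC of all genes from 0.03 to 0.16 and that of the members to 0.34, with 17 higher and 3 lower.

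**Figure D2:**
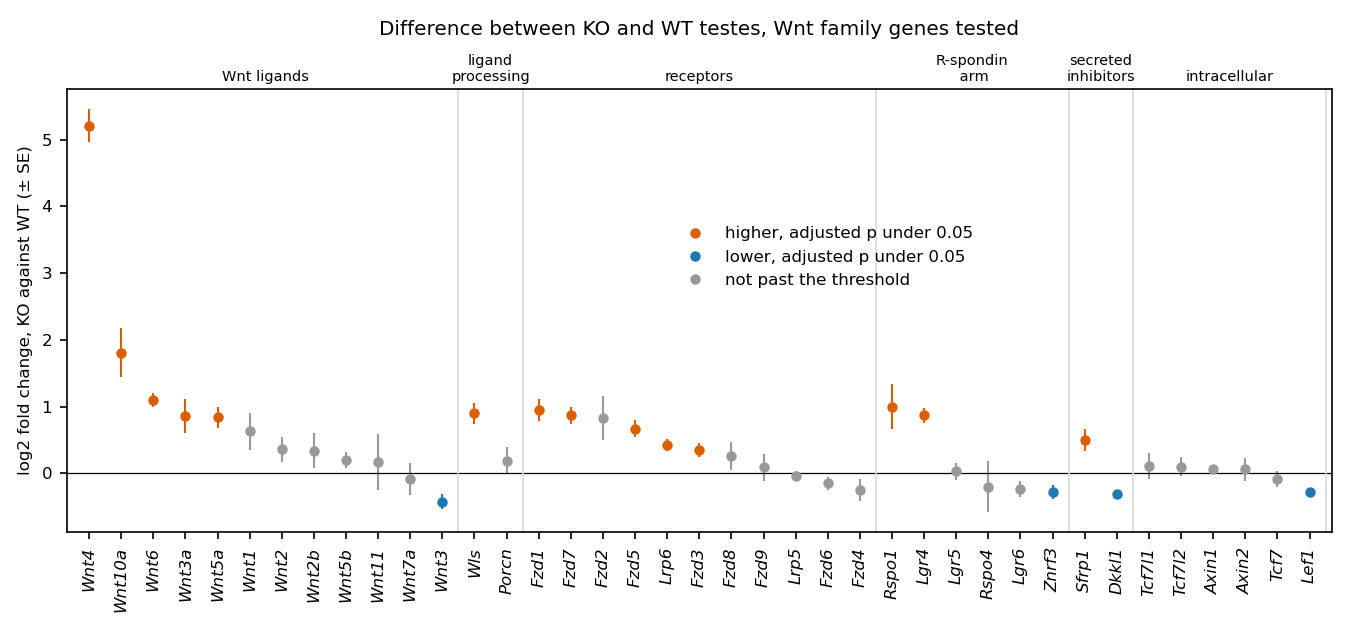
LFC of MLX KO against WT testes for the 39 members tested, with bars of 1 SE, coloured by whether the gene was higher, lower or not past the threshold. *Wnt4* at 5.21 lies far above *Wnt10a* at 1.81 and *Wnt6* at 1.10, and the 4 lower members lie between -0.42 and -0.28.

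Among the ligands, 5 were higher in MLX KO testes, 1 was lower and 6 of the 12 tested did not pass the threshold, beside 24.8% higher and 20.6% lower of all genes. *Wnt6*, a ligand of epithelial tissues, had 18.3, 18.3 and 19.1 CPM in WT and 32.9, 44.4 and 42.1 CPM in MLX KO libraries. All MLX KO values lay well above the WT values, with KO1 the lowest of them. The LFC of *Wnt6* was 1.10 (SE 0.11, adjusted p = 2.43e-05). *Wnt10a*, known for its part in tooth, hair and skin development, lies 6.7 kb downstream of *Wnt6* on chromosome 1. It was scarce, with 7, 3 and 6 counts in the WT libraries and 18, 17 and 26 in the MLX KO libraries, but the groups did not overlap and its LFC was 1.81 (SE 0.37, adjusted p = 0.00239). *Wnt5a*, the main ligand of β-catenin-independent signalling, had 58, 57 and 57 counts in the WT libraries and 109, 95 and 128 in the MLX KO libraries. Its WT libraries were nearly equal and every MLX KO library was above them, with an LFC of 0.84 (SE 0.16, adjusted p = 0.00151). A predicted antisense gene covers 4.58% of the exonic bases of *Wnt5a*. *Wnt3a*, a ligand of the β-catenin pathway, had 61, 26 and 30 counts in the WT libraries and 87, 78 and 62 in the MLX KO libraries, so WT1 came near KO3. The LFC of *Wnt3a* was 0.86 (SE 0.26, adjusted p = 0.0177), and the call was lost without WT2 (adjusted p = 0.0725), WT3 (0.0653) or KO2 (0.0543).

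*Wnt3*, a β-catenin pathway ligand required for gastrulation, was the only ligand tested that was lower past the threshold. It had 46.7, 48.1 and 57.7 CPM in WT and 44.8, 34.6 and 34.4 CPM in MLX KO libraries. KO1 lay just below the lowest WT library, while KO2 and KO3 were clearly lower. The LFC was -0.42 (SE 0.11, adjusted p = 0.00873). *Wnt3* lies on chromosome 11 from 103774175 to 103818021, 2.68 Mb from the targeted *Mlx* gene, and its start overlaps by 1.1 kb the span of *Wnt9b* on the opposite strand. *Fzd2* (1.51 Mb), *Wnt9b* (2.64 Mb) and *Axin2* (7.83 Mb) are also near *Mlx*, and none of them was past the threshold. The part of this position in the values was not tested.

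Stretches upstream of an annotated start of *Wnt4*, *Wnt6* and *Wnt3* are shown. These genes are the ligand with the largest LFC and the pair that held most ligand counts, and MLX partners bind E-box sequences near gene starts. The stretches are RefSeq sequences of GRCm38.p6 (mm10), plus strand, 5′ to 3′, each cut before any annotated exon in its promoter window. The *Wnt6* stretch ends before a start at 74771892 and lies inside the RefSeq span of the gene, which begins at 74754342. That of *Wnt3* ends at 103774055, short of its first annotated exon at 103774150, and lies within the span of *Wnt9b*. Capitals mark GC boxes, GGGCGG or its reverse complement CCGCCC, overlapping matches included.
Wnt4, chr4:137277385-137277488: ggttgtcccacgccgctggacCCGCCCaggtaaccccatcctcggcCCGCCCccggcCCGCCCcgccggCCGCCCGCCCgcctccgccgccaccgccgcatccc
Wnt6, chr1:74771642-74771891: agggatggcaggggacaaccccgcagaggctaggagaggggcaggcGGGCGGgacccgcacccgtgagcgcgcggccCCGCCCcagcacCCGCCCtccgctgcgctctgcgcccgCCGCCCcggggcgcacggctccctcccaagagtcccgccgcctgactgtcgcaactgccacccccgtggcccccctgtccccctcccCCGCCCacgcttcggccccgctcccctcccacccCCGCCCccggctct
Wnt3, chr11:103773925-103774055: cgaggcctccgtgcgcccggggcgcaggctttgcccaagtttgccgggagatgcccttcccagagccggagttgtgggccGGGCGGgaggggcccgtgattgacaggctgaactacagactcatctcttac

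The *Wnt4* stretch of 104 bases had 5 GC boxes and 83.7% G or C. That of *Wnt6* had 6 and 79.6% in 250 bases, and that of *Wnt3* had 1 and 66.4% in 131 bases. None of the 3 stretches held the E-box CACGTG or the TCF/LEF motif CTTTGAT, searched on both strands. RefSeq promoter windows of 300 bases, from 250 before to 50 after a gene start, were found for 35 of the 55 members, in 43 windows. CACGTG was in 4 of the 43 windows (9.3%, against 7.15% of all 32817 windows), namely those of *Fzd9*, *Lef1*, *Rspo4* and *Wnt9a*. CTTTGAT was in 2 (4.65%, against 3.73%), those of *Wnt11* and *Wnt5b*, and GC boxes were in 32 (74.4%, against 35.6%). Of the 4 genes with an E-box, *Lef1* was lower, *Fzd9* and *Rspo4* were not past the threshold, and *Wnt9a* had too few counts for the test. Only the exact letters CACGTG were searched, which most windows lack, and binding of MLX was not tested.

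The ligand make-up of the testis shifted between the genotypes. In WT libraries *Wnt3* took 55.7% ± 3.03 (SD, n = 3) of the counts on all 18 ligands, *Wnt6* took 20.4% ± 0.759 and *Wnt4* took 0.206% ± 0.0822. In MLX KO libraries *Wnt6* took 34.7% ± 4.89 (SD, n = 3), *Wnt3* took 33.1% ± 5.72 and *Wnt4* took 6.35% ± 0.463. The shares of all 3 genes were without overlap between the groups, and since a share is taken within a library, it does not depend on the scaling between libraries. Divided by exon length, which puts ligands on a common scale, *Wnt3* led in WT with 51.6% and *Wnt6* followed with 26.5%, whereas *Wnt6* led in MLX KO testes with 43.6% before *Wnt3* with 29.7%. On that scale *Wnt4* went from 0.14% to 4.18%, and in MLX KO testes it stood behind *Wnt5b* (6.48%) and ahead of *Wnt2* (3.58%) and *Wnt3a* (3.52%). Over the 3 MLX KO libraries the range of *Wnt3a* (2.81 to 4.05%) overlapped that of *Wnt4* (3.83 to 4.36%). Summed over all 18 ligands, the level was 91.1 ± 5.9 CPM (SD, n = 3) in WT and 115 ± 1.74 CPM in MLX KO libraries. Without *Wnt4* and *Wnt6* the sum was 72.3 ± 5.43 and 67.7 ± 4.79 CPM, with overlapping libraries.

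**Figure D3:**
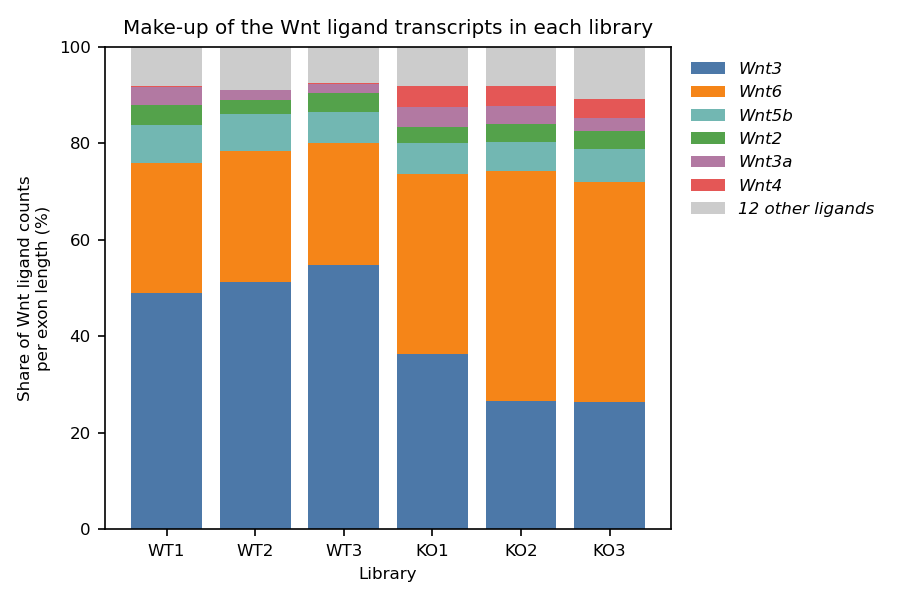
Share (%) of the counts on all 18 Wnt ligand genes, each divided by exon length, that falls on 6 named ligands and on the other 12 together, for each of the 6 libraries. *Wnt3* fills 49 to 54.7% of each WT bar and 26.4 to 36.3% of each KO bar, while *Wnt6* goes from 25.4 to 27.3% up to 37.4 to 47.7% and the red *Wnt4* band is visible in KO libraries.

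The remaining ligands tested did not pass the threshold. *Wnt5b*, with the highest level of these, had 123, 98 and 105 counts in the WT libraries and 130, 125 and 148 in the MLX KO libraries (LFC 0.20, adjusted p = 0.198). *Wnt2* had 53, 31 and 54 against 61, 63 and 65 counts (LFC 0.36), *Wnt2b* had 19, 23 and 26 against 28, 28 and 37 (0.34), and *Wnt7a* had 39, 27 and 46 against 37, 29 and 48 (-0.08). For *Wnt5b* and *Wnt2* all MLX KO libraries were above the WT libraries in CPM, and for the other ligands the groups overlapped. *Wnt11* had 23, 10 and 6 against 14, 18 and 15 counts (LFC 0.17). *Wnt1* had 15, 24 and 19 against 28, 35 and 34 counts (LFC 0.63, adjusted p = 0.0895) and passed the threshold without WT2 (adjusted p = 0.0455) and with library size alone (0.0478). The 6 ligands not tested had at most 22 counts in any library. *Wnt9a*, which lies 16.1 kb from *Wnt3a*, was the only untested member with all MLX KO libraries above WT in CPM, with 9, 6 and 7 against 16, 9 and 22 counts, and an LFC of 0.98 (adjusted p = 0.0843) when no filter was applied. It entered the test without 1 library in 4 fits, and passed only without KO2, its lowest KO library (adjusted p = 0.0302, against 0.1 to 0.149 without WT1, WT2 or WT3). *Wnt10b* had 5, 7 and 4 against 3, 6 and 15 counts, *Wnt8b* had 7, 6 and 5 against 4, 3 and 10, and *Wnt7b* had 6, 5 and 4 against 3, 4 and 5. *Wnt9b* had 7, 5 and 0 against 2, 4 and 6 counts, and *Wnt8a* had at most 2. In these 4 genes and *Wnt8a* the groups overlapped, and differences were not detectable at this depth.

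Of the genes of ligand processing, *Wls*, the carrier of Wnt proteins to the surface, was higher. It had 74, 77 and 74 counts in the WT libraries and 142, 174 and 137 in the MLX KO libraries, without overlap, and an LFC of 0.90 (SE 0.16, adjusted p = 0.000926). *Porcn*, the Wnt acyltransferase, had 71, 83 and 103 against 83, 107 and 127 counts, which overlapped (LFC 0.19, SE 0.20, adjusted p = 0.463).

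Among the 12 receptors, 11 were tested, 5 were higher and none was lower, beside 24.8% higher and 20.6% lower of all genes tested. *Fzd1* had 62, 62 and 88 counts in the WT libraries and 133, 141 and 168 in the MLX KO libraries (LFC 0.95, SE 0.17, adjusted p = 0.00108). *Fzd7*, close to *Fzd1* in sequence, had 90, 66 and 78 against 152, 164 and 142 counts (LFC 0.87, SE 0.13, adjusted p = 0.000414). *Fzd5* had 77, 62 and 84 against 126, 128 and 127 counts (LFC 0.67, SE 0.13, adjusted p = 0.00211). In all 3 genes every MLX KO library was above every WT library, and for *Fzd5* a provisional transcript annotated on the opposite strand covers 17.8% of the exonic bases. *Lrp6*, the co-receptor, had 323, 240 and 288 counts in the WT libraries and 371, 416 and 434 in the MLX KO libraries (LFC 0.42, SE 0.09, adjusted p = 0.00398). *Fzd3*, a receptor of axon guidance and planar polarity, had 205, 173 and 203 against 233, 277 and 284 counts (LFC 0.35, SE 0.11, adjusted p = 0.0233). The groups of *Lrp6* and *Fzd3* were apart in CPM, KO1 being the lowest KO library for both. The call of *Fzd3* was lost without WT1 (adjusted p = 0.0698), WT2 (0.0668), KO2 (0.0847) or KO3 (0.0817) and in DESeq2 (0.0686, or 0.17 with the pairs as a block).

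The other co-receptor, *Lrp5*, had the highest receptor level per exon length, 8.42 CPM per kb in WT and 8.18 in MLX KO testes, beside 1.18 and 1.59 for *Lrp6*. It had 1412, 1270 and 1611 counts in the WT libraries and 1611, 1467 and 1412 in the MLX KO libraries, and the groups overlapped (LFC -0.04, SE 0.07, adjusted p = 0.668). *Fzd2* had 18, 9 and 8 against 24, 18 and 25 counts, with all MLX KO libraries above WT in CPM and an LFC of 0.83 (SE 0.33, adjusted p = 0.0566). It passed the threshold without WT1 (adjusted p = 0.0249), without pair 1 (0.0317) and with library size alone (0.0333). The LFCs of *Fzd4*, *Fzd6*, *Fzd8* and *Fzd9* were between -0.25 and 0.26 and none passed the threshold. *Fzd10* had at most 7 counts in a library and was not tested.

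In the R-spondin arm, *Lgr4* and *Rspo1* were higher and *Znrf3* was lower. *Lgr4*, a receptor for R-spondins, had 12.7, 12.1 and 12.5 CPM in WT and 18.7, 23.6 and 25.6 CPM in MLX KO libraries. The WT values were nearly equal and KO1 was the lowest of the MLX KO libraries, still well above them. The LFC of *Lgr4* was 0.87 (SE 0.11, adjusted p = 0.000177). *Rspo1*, the R-spondin of ovarian determination, was scarce, with 13, 10 and 7 counts in the WT libraries and 17, 20 and 28 in the MLX KO libraries (LFC 1.00, SE 0.34, adjusted p = 0.0297). Its groups did not overlap in CPM, but the call was lost without WT2 (adjusted p = 0.0629), WT3 (0.11), KO2 (0.0642) or KO3 (0.128) and in DESeq2 (0.131, or 0.272 with the pairs as a block). *Znrf3*, the ligase that removes Frizzled receptors, had 669, 632 and 607 counts in the WT libraries and 593, 607 and 492 in the MLX KO libraries (LFC -0.28, SE 0.10, adjusted p = 0.0332). That call was lost without WT1 (adjusted p = 0.0504), WT2 (0.141) or KO3 (0.135) and with library size alone (0.261, LFC -0.14). *Lgr6* (155, 167 and 168 against 149, 153 and 150 counts, LFC -0.23), the stem cell marker *Lgr5* (LFC 0.03) and *Rspo4* (LFC -0.20) did not pass the threshold. *Rspo2* and *Rspo3* had too few counts for a test, and *Rspo3* had at most 2 in any library.

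Most secreted inhibitors under the naming rule were scarce, while the secreted *Frzb*, described below, lay outside that rule. Of 9 genes, *Dkk1*, *Dkk2*, *Dkk3*, *Dkk4*, *Sfrp2*, *Sfrp4* and *Sfrp5* were too scarce to be tested, *Dkk4* and *Sfrp4* having no more than 2 counts in any library. *Sfrp1*, which binds Wnt ligands, had 48, 35 and 48 counts in the WT libraries and 65, 69 and 65 in the MLX KO libraries, without overlap in CPM (LFC 0.50, SE 0.17, adjusted p = 0.0325). Its call was lost without WT1 (adjusted p = 0.0729), WT2 (0.11), KO2 (0.107) or KO3 (0.068), without pair 1 (0.0616) and in DESeq2 (0.162, or 0.31 with the pairs as a block). *Dkkl1* carries a Dickkopf-like name but encodes a protein of the sperm acrosome, and its level per exon length was the highest of the 55 genes, 507 CPM per kb in WT and 408 in MLX KO testes. It had 788, 805 and 803 CPM in WT and 678, 621 and 628 CPM in MLX KO libraries, all lower than any WT library (LFC -0.31, SE 0.05, adjusted p = 0.000597).

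Of the intracellular members, *Lef1*, a DNA-binding partner of β-catenin, was lower. It had 76.6, 80.4 and 79.1 CPM in WT and 70.8, 62.1 and 61.1 CPM in MLX KO libraries, with KO1 nearest to WT (LFC -0.28, SE 0.06, adjusted p = 0.00352). An antisense gene of the annotation covers 13.7% of its exonic bases. *Axin1*, with the highest level of those not past the threshold, had 958, 845 and 925 counts in the WT libraries and 1052, 998 and 1012 in the MLX KO libraries (LFC 0.06, adjusted p = 0.366), but passed it with library size alone (LFC 0.20, adjusted p = 0.0104). *Axin2*, the feedback inhibitor often read as a reporter of β-catenin signalling, had 66, 56 and 59 against 80, 65 and 58 counts, overlapping (LFC 0.06, SE 0.17, adjusted p = 0.795). *Tcf7*, *Tcf7l1* and *Tcf7l2* had LFCs between -0.09 and 0.11.

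Other genes of the pathway, listed by role, numbered 62, of which 56 were tested. Of these 15 were higher and 5 were lower, together 35.7% beside the 45.4% of all genes tested, with 26.8% higher (24.8% of all genes) and 8.93% lower (20.6%). Their median LFC was 0.07, and the counts of the shorter lists below are to be read beside the same background. In cytoplasmic transduction, 5 of 20 were higher and 4 lower. The genes with the largest changes were *Apc* (LFC 0.56, SE 0.08, adjusted p = 0.000271), a scaffold of the destruction complex, *Tnks2* (0.55, SE 0.06, adjusted p = 6.2e-05), a tankyrase that marks AXIN for removal, and *Csnk1g2* (-0.50, SE 0.06, adjusted p = 7.89e-05), a casein kinase. *Csnk1d*, at an LFC of -0.12 (adjusted p = 0.0481), lost its call with the pairs as a block (adjusted p = 0.107) and stood at 0.02 with library size alone. That scaling gave 8 higher and 1 lower in this list, *Dvl1* (adjusted p = 0.417) and *Csnk1a1* (0.163) being no longer past the threshold. Among the nuclear partners of TCF/LEF, 5 of 11 were higher and none lower (median LFC 0.32), with *Tle2*, a Groucho-type co-repressor, at 29, 21 and 63 counts in the WT libraries and 80, 143 and 158 in the MLX KO libraries (LFC 1.66, SE 0.35, adjusted p = 0.00281), the kinase *Nlk* at an LFC of 0.41 and the co-activator *Bcl9l* at 0.39, which lost its call in DESeq2 with the pairs as a block (adjusted p = 0.0875). *Ctnnb1* itself, which encodes β-catenin, was higher (LFC 0.32, SE 0.05, adjusted p = 0.00052) and lay outside the naming rule.

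Among other receptors and planar polarity genes, 4 of the 13 tested were higher and none was lower, led by the glypican *Gpc4* (LFC 1.09, SE 0.11, adjusted p = 2.91e-05), the formin-related *Daam2* (0.43) and *Prickle1* (0.38). The call of *Prickle1* was lost without KO2 (adjusted p = 0.0525) or KO3 (0.0535) and in DESeq2 with the pairs as a block (0.119). Among the other inhibitors, *Frzb*, a secreted Frizzled-related protein, was higher (LFC 0.59, SE 0.09, adjusted p = 0.000457) and *Draxin* was lower, with 37, 21 and 34 counts in the WT libraries and 7, 9 and 20 in the MLX KO libraries (LFC -1.44, SE 0.36, adjusted p = 0.00747). Of 10 known target genes of β-catenin outside the family, 7 were tested and 0 passed the threshold in edgeR or in DESeq2, while 2 had an unadjusted p under 0.05. These were *Myc* (LFC 0.98, adjusted p = 0.0766) and *Rnf43* (LFC -0.39, adjusted p = 0.0518), which point in opposite directions. *Myc* passed as higher without WT3 (adjusted p = 0.0134), and *Ccnd1* passed as higher without KO3 (0.047) and with library size alone (0.023). *Rnf43* passed as lower in edgeR with DESeq2 size factors (LFC -0.41, adjusted p = 0.0388). Of the targets too scarce for the main test, *Cd44* had 1, 0 and 4 counts in the WT libraries and 21, 5 and 11 in the MLX KO libraries. Its groups did not overlap in CPM, while *Sp5* and *Notum* had at most 3 counts in any library.

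Of the 20 calls among the other pathway genes, 11 were kept in every alternative and 6 were lost without 1 library. Besides *Prickle1* these were *Csnk1d* (without any library but KO1, adjusted p = 0.0819 to 0.187), the casein kinase *Csnk1g3* (the same libraries, 0.0527 to 0.145), the β-catenin inhibitor *Ctnnbip1* (the same libraries, 0.0545 to 0.126), the Wnt receptor *Ryk* (without WT1, WT3 or KO2, 0.065 to 0.0866) and the Dishevelled gene *Dvl3* (without WT1, 0.0723, or KO2, 0.0589). Calls were gained without KO1 for *Btrc* (adjusted p = 0.0368), *Tnks* (0.0257), *Bcl9* (0.0459) and *Tle1* (0.0331), without WT1 for *Vangl1* (0.0472), without WT3 for *Daam1* (0.0364) and without KO3 for *Kremen1* (0.0258).

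Of 4 genes that act with *Wnt4* in the developing ovary, only *Fst*, which encodes the activin-binding protein follistatin, passed the filter on low counts. It had 8, 8 and 13 counts in the WT libraries and 61, 76 and 80 in the MLX KO libraries, far apart, with an LFC of 2.79 (SE 0.27, adjusted p = 2.34e-05). Like *Wnt4*, *Wnt10a* and *Rspo1*, *Fst* met that filter through its MLX KO libraries and would not have met it by its WT libraries alone. The same held for *Fzd2*, *Wnt11* and *Myc*, which did not pass the threshold in the main test. *Bmp2* had 1, 0 and 0 counts in the WT libraries and 7, 5 and 5 in the MLX KO libraries, and passed the threshold when no filter on low counts was applied (adjusted p = 0.00894). *Foxl2*, the transcription factor of ovarian granulosa cells, had at most 1 count in any library, and *Irx3* had 5, 4 and 5 against 10, 4 and 3.

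**Figure D4:**
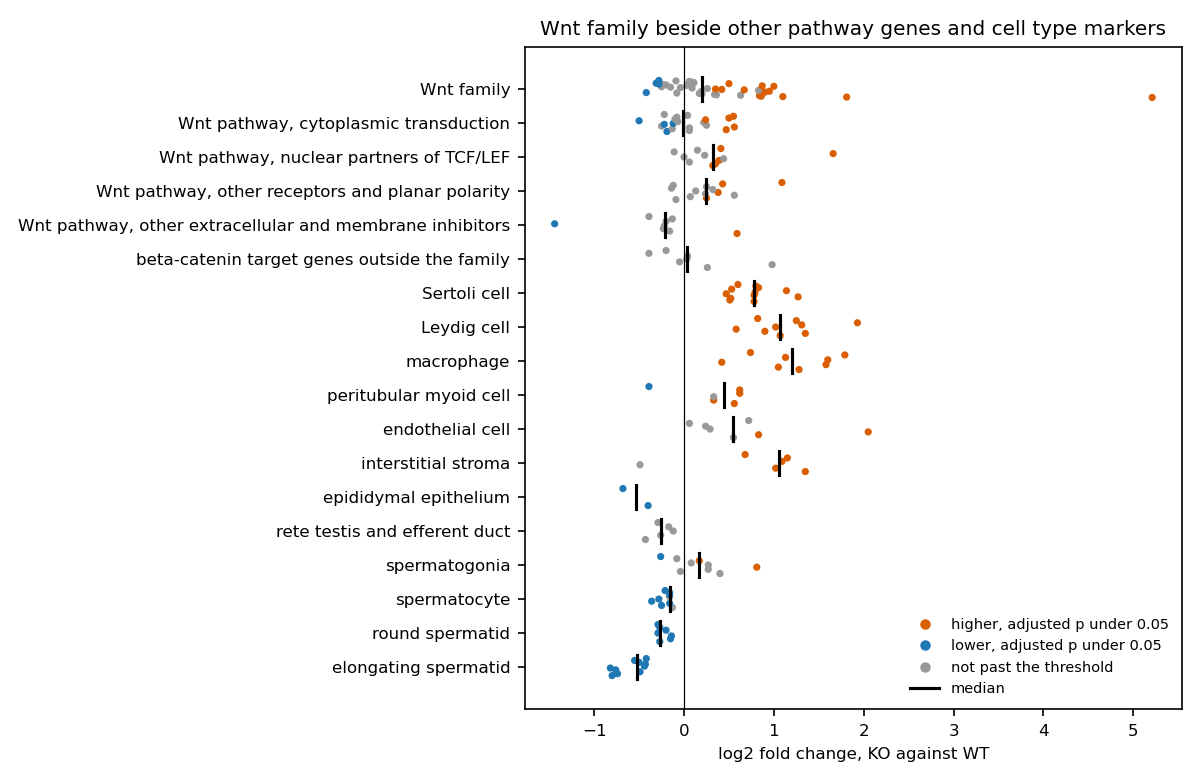
LFC of MLX KO against WT for each tested gene of the Wnt family, of the other pathway lists and of the cell type marker lists, with 1 point per gene and a bar at each list's median. The family's median is 0.20, those of the Sertoli, Leydig, macrophage and stroma lists are 0.78 to 1.21, and *Wnt4* at 5.21 lies beyond all markers, the highest of which is at 2.05.

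The somatic marker lists moved with the higher members. Summed Sertoli cell markers were at 1350 to 1390 CPM in WT and 2050 to 2480 CPM in MLX KO libraries, Leydig cell markers at 901 to 924 and 1910 to 2530 CPM, macrophage markers at 80.8 to 85.1 and 169 to 175 CPM, and stroma markers at 63.4 to 76 and 122 to 169 CPM. Peritubular myoid markers (4 of 6 higher, 1 lower; 310 to 369 and 309 to 325 CPM, most of it the lower *Actg2* at 238 to 282 and 194 to 217 CPM) and endothelial markers (2 of 7 higher; 36.5 to 45.6 and 52.6 to 59.1 CPM) moved less evenly. Of 8 epididymal markers with counts, listed as a sign of tissue carried over in dissection, only *Cst8* and *Rnase10* could be tested, and both were lower. The sum of the 8, 195 to 204 CPM in WT and 148 to 152 CPM in MLX KO libraries, is almost all *Cst8* (190 to 199 and 144 to 149 CPM). *Lcn5*, *Lcn9*, *Lcn12*, *Adam7* and *Cst11* had at most 3 counts in each library, *Lcn9* with 0 in each WT library and 2, 1 and 1 in KO1 to KO3. *Crisp1* had 2, 1 and 1 against 1, 4 and 1. With these nearly absent, the lower *Cst8* and *Rnase10* are no measure of carried over tissue. Of 8 rete testis markers, 5 were tested and none passed the threshold. Among those too scarce to be tested, *Pax8* had 3, 2 and 2 counts in the WT libraries and 2, 7 and 12 in the MLX KO libraries. *Krt18* had 3, 4 and 4 against 4, 8 and 9, and *Krt7* had 0, 1 and 4 against 1, 1 and 4, all overlapping in CPM. Elongating spermatid markers fell from 26300 to 27300 CPM in WT to 16100 to 19500 CPM in MLX KO libraries, beside the 4 lower members. Of the spermatocyte markers 7 of 9 were lower (median LFC -0.16), and of the spermatogonial markers 2 of 9 were higher and 1 was lower (0.17). The part of these marker changes in the values of the family was not tested.

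Set against the summed counts of the 12 Sertoli markers in the same library, most of the higher members no longer differed in range. *Clu* made up most of that sum, at 709 to 755 CPM in WT and 1100 to 1360 CPM in MLX KO libraries (LFC 0.78). The next largest part was *Ctsl*, at 281 to 300 and 458 to 547 CPM, and ratios without these genes were not taken. *Wnt4* had 0.196, 0.0914 and 0.123 counts per 1000 Sertoli marker counts in the WT libraries and 3.57, 3.12 and 2.8 in the MLX KO libraries, a ratio of means of 23.1. *Wnt10a* (ratio 2.13) and *Wnt6* (1.26) also stayed above WT in every MLX KO library. Of the other 11 higher members, 9 overlapped between the groups, with ratios from 0.843 for *Sfrp1* to 1.19 for *Rspo1*, and *Fzd3* (0.752) and *Lrp6* (0.793) were below WT. The 4 lower members were at 0.449 to 0.492 of WT. Of all 3634 genes higher past the threshold, 609 (16.8%) stayed above WT on this scale, 1671 overlapped and 1354 were below WT. Against the markers of 5 further somatic cell types, *Wnt4* was above WT in every MLX KO library for each list, with ratios from 15.9 for Leydig cell to 41.4 for peritubular myoid markers, the latter 26.9 without *Actg2*. *Wnt6* had ratios of 0.864 against Leydig cell, 1.05 against macrophage, 1.01 against stroma, 1.51 against endothelial and 2.34 against peritubular myoid markers (1.51 without *Actg2*), with all MLX KO libraries above WT for the endothelial and myoid lists, below for the Leydig cell list and overlap for the others. *Wnt10a* overlapped against Leydig cell markers (1.46). Which cells hold these transcripts was not tested.

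**Figure D5:**
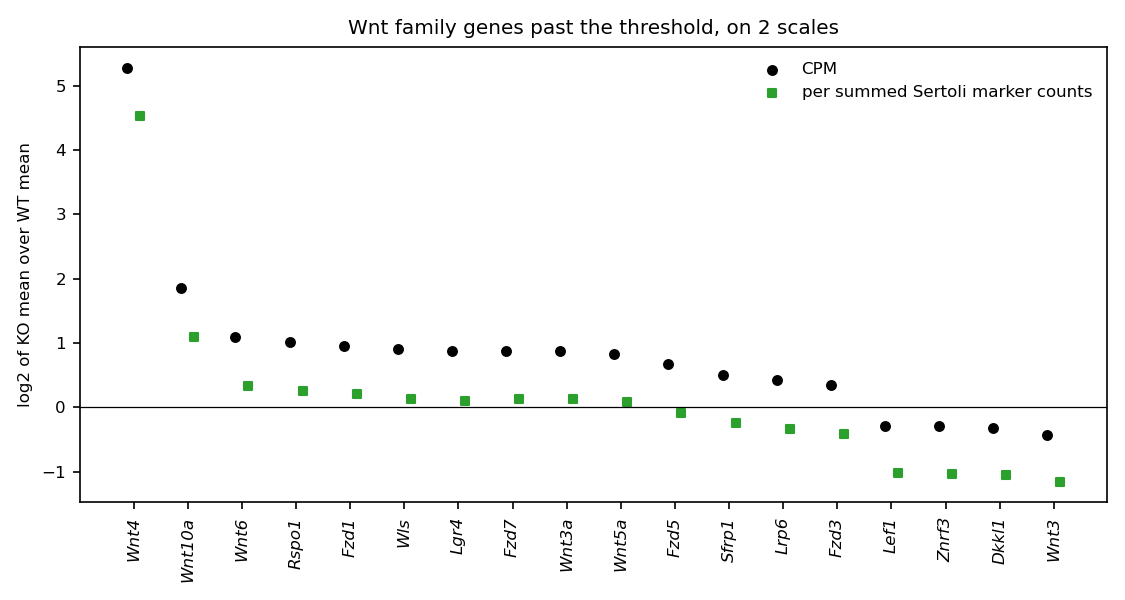
Log2 of the ratio of MLX KO to WT means for the 18 members past the threshold, in CPM (circles) and per summed Sertoli marker counts of the same library (squares). On the Sertoli scale *Wnt4* remains high at a ratio of 23.1, *Wnt10a* is at 2.13, most other genes fall near 0 on the log2 axis, and *Lef1*, *Znrf3*, *Dkkl1* and *Wnt3* go from slightly below to ratios of 0.449 to 0.492.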

How the data were processed

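Whole testes RNA of 6 males was sequenced as paired-end reads. The authors aligned the reads to mm10 with TopHat and deposited whole-number read counts per gene symbol and library, without normalization. The counting tool, annotation and strand setting are not given in the sources used here. The submitters' processing notes also list DESeq2, and the paper's methods name edgeR or DESeq. The same table holds 6 columns of the authors' own comparison (mean, log2 fold change, its error, statistic, p-value and adjusted p-value), which were not used. The ChIP-Seq samples were not analysed here.

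Of 17933 table entries, 2 repeated others and were dropped. Counts were tested with edgeR 4.0.16 in R 4.3.3: filterByExpr with a minimum count of 10, TMM, a two-sided quasi-likelihood test of genotype without further terms, and p-values adjusted by Benjamini-Hochberg over 14640 genes, with a threshold of 0.05. The SE is the unshrunk coefficient divided by the root of its F statistic. All p-values in the text are from this test unless another is named. A group with at most 3 counts in each library was taken as at the floor. Intervals (95%, Clopper-Pearson) cover counting error only. Exon lengths came from GENCODE vM21 (99.9% of symbols), coordinates and promoters from RefSeq GRCm38.p6, which is mm10. The code was tested on simulated data.

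The labels call the replicates paired, and the study describes littermate pairs. Deviations from group means had correlations of 0.145, 0.0363 and 0.121 for libraries of equal number and of 0.033 or less for all other combinations. The main comparison leaves the pair out, and the block is an alternative. No libraries were duplicates (chi-square per degree of freedom 2.66 to 7.92 within genotypes).

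Every member is accounted for. Those past the threshold are given with their values, as are all Wnt ligands and, of the rest, the gene with the highest mean CPM in each role. In other pathway lists up to 3 genes past the threshold, with the largest absolute change in the same direction in all 3 pairs, are named. Further pathway genes and markers were named after their values were seen, where a call changed without 1 library or where 1 gene carried a sum. Members, lists and tests were chosen with earlier results of these data known. The GC box was chosen after the sequences were seen. Alternatives were DESeq2 1.42.0, its size factors, library size alone, upper-quartile scaling, the block in edgeR and DESeq2, no filter, at least 1 CPM in 3 libraries, each library left out in turn and, chosen after seeing the data, pair 1 left out and the myoid list without *Actg2*.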

Additional observations from a re-analysis of the deposited data

How the results depend on the processing

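Over 15 alternatives the 18 members past the threshold gave 268 values, of which 242 kept their direction and side of the threshold, 26 were no longer past it and 0 changed direction. In every alternative that tested them, 13 of the 18 kept their call, *Wnt4* included. Leaving out 1 library gave 14 to 18 members past the threshold (11 to 14 higher, 3 to 4 lower), a *Wnt4* LFC of 5.02 to 5.54, and *Wnt4* shares of 0.159 to 0.236% in WT and 6.16 to 6.61% in MLX KO testes. For the other pathway genes it gave 15 to 24 past the threshold, 11 to 17 higher and 4 to 7 lower. With the pairs as a replicate block, edgeR called 18 members and 19 other pathway genes, and changed no call of a member. DESeq2 with the replicate block called 15 members (38.5% of those tested) and 13 other pathway genes, 9 of them higher, where 31.4% of all genes passed instead of 45.4%. Library size alone left 2 other pathway genes lower, and leaving out pair 1, chosen after seeing the data, left 8. Divided by exon length, the *Wnt4* share in MLX KO testes was 4.18%, since *Wnt4* is longer than *Wnt3* and *Wnt6*. The cause of the other shifts was not tested. With 3 libraries per genotype, the 16 members that were not tested, and the WT level of *Wnt4*, rest on few counts.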
